A study of Caenorhabditis elegans with 4 samples.

Results

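The BLMP-1 peaks of chromosome V were all peaks whose chromosome field read V, with no other condition. There were 3791 of them among 17858 peaks in the list of the whole series, 2372 among 11261 in the list of ChIP replicate 1 and 591 among 3009 in that of replicate 2. The peaks came from chromatin immunoprecipitation and sequencing (ChIP-seq) in Caenorhabditis elegans embryos, from 2 ChIP samples, each with an input sample set aside before precipitation. All samples were hermaphrodites of strain OP109 grown at 20 °C and fixed with 2% formaldehyde, and anti-GFP antibodies collected the tagged protein. OP109 carries allele ed3 of unc-119 on chromosome III and the transgene wgIs109, in which blmp-1 is joined to TY1, EGFP and FLAG tags and stands beside a wild-type unc-119 copy. The transgene was introduced by particle bombardment, the strain is listed with 0 outcrosses, and the genotype lists no mutation of the worms' own blmp-1. No untagged strain was analysed here.

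BLMP-1 binds DNA through zinc fingers and is the worm counterpart of mammalian Blimp-1 (PRDM1). In larvae it is known for setting the timing of gonad migration and of epidermal development, where the F-box protein DRE-1 targets it for degradation. Worm chromosomes have no single centromere, and each autosome is commonly described as a centre flanked by 2 arms. Centres hold more conserved and essential genes, while arms recombine more, carry more repeats and more chromatin methylated at histone H3 lysine 9, and house rapidly changing gene families. Chromosome V is known for its many chemoreceptor genes, many of them on the arms. No gene is assigned to a peak here.

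Each peak has a position, given here on chromosome V of the WormBase WS220 build, and a deposited score. Scores lie between 0 and 0.001 and were taken to be q-values, so that smaller means stronger. Read depth is unknown and the inputs were not analysed here, so a peak is a called region and is not shown to be a binding site. Of the peak numbers, 428 were missing from the series list, 148 from replicate 1 and 0 from replicate 2, and to which chromosomes they belonged is not known. Intervals are exact (Clopper-Pearson) at 95% and cover counting error only. Peaks near each other are not independent, so the p-values below are too small and describe these lists, not variation between worms.

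Peaks lay along the whole of chromosome V, more evenly in the series list than in replicate 2. Over the span of 20.9 Mb, taken to the last peak end, the series list held 181 peaks per Mb, replicate 1 held 113 and replicate 2 held 28.3. In 20 full bins of 1 Mb the series count ran from 131 to 217 with a median of 189. The same bins held 66 to 158 peaks in replicate 1 and 10 to 49 in replicate 2, a wider relative range in the shorter list. The highest count fell in the bin from 11000001 to 12000000 in all 3 lists. The lowest fell between 17000001 and 18000000 in the series list and replicate 1, and between 2000001 and 3000000 in replicate 2. Across the 20 bins the counts of the replicates went together with Pearson's r of 0.730 and Spearman's rho of 0.721, a description of bins that share mappability and base composition.

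**Figure D1:**
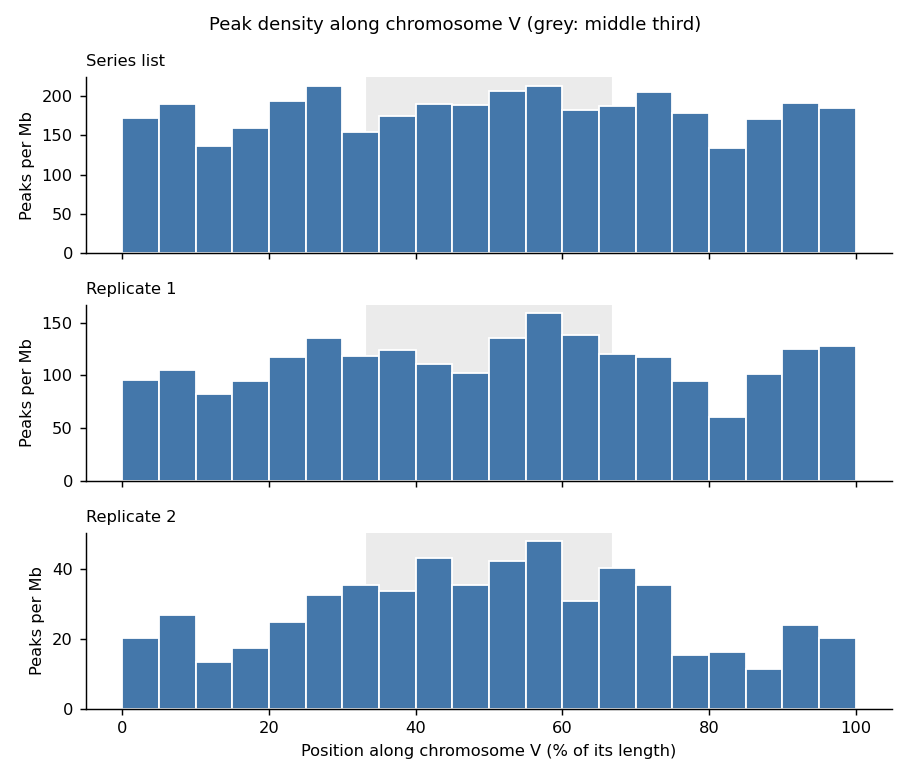
Peaks per Mb (y axis) in 20 bins of 5% of the length of chromosome V (x axis) for the series list and both replicates, with the middle part in grey. The 20 bars of replicate 2 are highest inside and beside the grey part and low towards both ends, while those of the series list vary less.

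The middle of chromosome V held more peaks than its outer parts, by little in the series list and by more in each replicate. The chromosome was cut into 3 equal parts, the left ending at 6966505 and the middle at 13933011. The left and right parts together are called the outer parts. They follow length alone and were not matched to mapped arms. Here the series list had 174 peaks per Mb on the left, 191 in the middle and 179 on the right. The ratio of middle to outer density was 1.08 (interval 1.01 to 1.16, two-sided exact binomial p 0.0230, 0.0276 after Benjamini-Hochberg adjustment over 6 tests within V). In replicate 1 the left and right parts each held 107 peaks per Mb against 127 in the middle, a ratio of 1.19 (exact binomial p 3.82e-05). In replicate 2 the left part held 24.1, the middle 38.5 and the right 22.2 per Mb, a ratio of 1.66 (exact binomial p 1.44e-09). The call in the series list was lost when neighbouring peaks with a gap under 1000 bp were counted as 1 (ratio 1.04, p 0.297) and when the longest peak-free stretch was left out of the length (ratio 1.06, p 0.0712). The left and right parts did not differ past the threshold in the series list (ratio 0.975, interval 0.900 to 1.06, exact binomial p 0.545). A denser middle was not particular to V. Series peaks per Mb in middle and outer parts were 215 and 181 on II, 225 and 198 on III, 192 and 199 on IV and 180 and 175 on X. Those of II and III lay further apart than the 191 and 177 of V. In replicate 2 they were 44.0 and 30.8 on II, beside 38.5 and 23.2 on V. These contrasts were not tested between chromosomes.

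The larger contrast along V was in how many peaks both replicates held. Of all 17858 series peaks, 9.09% overlapped a peak of both replicates by at least 1 bp. On V the share was 7.12% (270 of 3791, interval 6.32% to 7.99%). It was 10.9% in the middle part (145 of 1330, 9.28% to 12.7%) but 5.27% on the left (64 of 1215, 4.08% to 6.68%) and 4.90% on the right (61 of 1246, 3.77% to 6.24%). Both outer intervals lay below that of the middle. The middle share was 2.15 times the outer share of 5.08% (two-sided Fisher's exact p 8.75e-11, adjusted 5.25e-10). With the middle 50% of V set against the rest the contrast widened to 10.2% against 3.63%, a ratio of 2.82. A series peak can lie in both only where replicate 2 has a peak. Replicate 2 held 38.5 peaks per Mb in the middle part and 23.2 in the outer parts. How far the share follows this density was not tested.

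Replicate overlap taken directly was also higher in the middle part than in the outer parts. Over the whole lists 13.8% of replicate 1 peaks overlapped a replicate 2 peak. On V this held for 14.7% in the middle part (130 of 886) and 8.21% in the outer parts (122 of 1486), with 61 of 743 on each side (Fisher's exact p 1.25e-06, adjusted 2.49e-06). In the other direction the whole-list share was 51.5%. On V it was 48.5% in the middle (130 of 268) and 37.2% in the outer parts (120 of 323, Fisher's exact p 0.00583, adjusted 0.00875). That last difference was not past the threshold among the stronger 50% of both lists, where the ratio was 1.17 (p 0.142). Of all replicate 2 peaks, 35.1% on the left (59 of 168) and 39.4% on the right (61 of 155) overlapped a replicate 1 peak.

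Strong peaks were spread in a like manner in the series list and replicate 1. A score below 1e-10 was reached by 7.94% of all series peaks and by 6.01% of those on V (228 of 3791). In the middle part of V it was reached by 9.02% (120 of 1330, interval 7.54% to 10.7%), against 4.39% in the outer parts (108 of 2461, 3.61% to 5.27%). The ratio was 2.06 (Fisher's exact p 2.57e-08, adjusted 7.71e-08). In replicate 1, where 5.48% of all peaks passed, the ratio was 2.08. In replicate 2, where 7.94% passed, it was 1.37 and not past the threshold (25 of 268 against 22 of 323, Fisher's exact p 0.287). There the left part had 9.52% (16 of 168, interval 5.54% to 15.0%) and the middle 9.33% (6.13% to 13.5%). The right part had the lowest share, 3.87% (6 of 155, 1.43% to 8.23%), but its interval overlapped the others and it was not tested alone. Of the 100 strongest series peaks of V, 58 lay in the middle part, 19 on the left and 23 on the right.

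**Figure D2:**
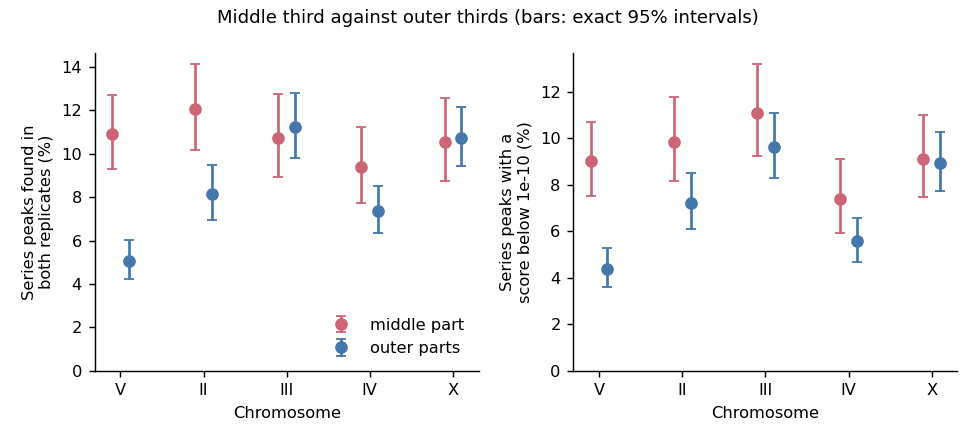
Share of series peaks found in both replicates (left, y axis in percent) and with a score below 1e-10 (right, percent) in the middle part and the outer parts of each chromosome (x axis). Points are shares and bars exact 95% intervals, and on V the outer points, at 5.08% and 4.39%, lie below all others shown.

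The contrast in the share of series peaks found in both replicates was stronger on V than on the 4 chromosomes it was set against. The odds of lying in both replicates were 2.29 times as high in the middle part as in the outer parts of V, against 1.54 on II, 0.949 on III, 1.30 on IV and 0.980 on X. Zelen's exact test of equal odds ratios, adjusted over the 4 chromosomes, gave p 0.0320 for II, 3.24e-06 for III, 0.00298 for IV and 3.31e-06 for X. This test was added after the shares had been seen, as were the tests of replicate 1 overlap, replicate 2 overlap and strong peaks between the middle and outer parts given above. The calls against all 4 were kept with 50% overlap, with midpoints within 200 bp and in the stronger 50% of the list. A series peak can lie in both only where replicate 2 has a peak. Replicate 2 held 38.5 and 23.2 peaks per Mb in the middle and outer parts of V, and 44.0 and 30.8 on II. It held 44.2 and 38.6 on III, 36.9 and 28.8 on IV and 33.4 and 31.7 on X. How far the contrast in odds follows these densities was not tested. The contrast in direct replicate overlap was not tested between chromosomes. Of replicate 2 peaks, 57.6% in the middle and 45.5% in the outer parts of II overlapped a replicate 1 peak. That difference was much like the one on V, at 48.5% and 37.2%.

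Replicates shared fewer peaks on V than on II, III or X. Of the replicate 2 peaks of V, 42.3% overlapped a replicate 1 peak (250 of 591, interval 38.3% to 46.4%), where the share in the whole list was 51.5%. The shares were 50.6% on II (272 of 538), 54.3% on III (303 of 558), 46.6% on IV (257 of 551) and 56.0% on X (320 of 571). Fisher's exact p-values, adjusted over the 4 comparisons, were 0.00797 against II, 0.000116 against III, 0.153 against IV and 1.37e-05 against X. Of the replicate 1 peaks of V, 10.6% overlapped a replicate 2 peak (252 of 2372), against 13.8% in the whole list. The shares were 15.2% on II, 14.8% on III, 12.0% on IV and 16.0% on X, with adjusted Fisher's exact p-values of 2.1e-05, 4.7e-05, 0.160 and 6.21e-07. V was the lowest of the 5 chromosomes in both directions, and its difference from IV did not pass the threshold in either. Among the stronger 50% of both lists the calls against II were lost in both directions (ratios 0.922 and 0.812), and so was that against III in replicate 1 peaks (0.829). Lists cut to equal length gave 0.845 against II and 0.882 against III for replicate 1 peaks, neither past the threshold.

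**Figure D3:**
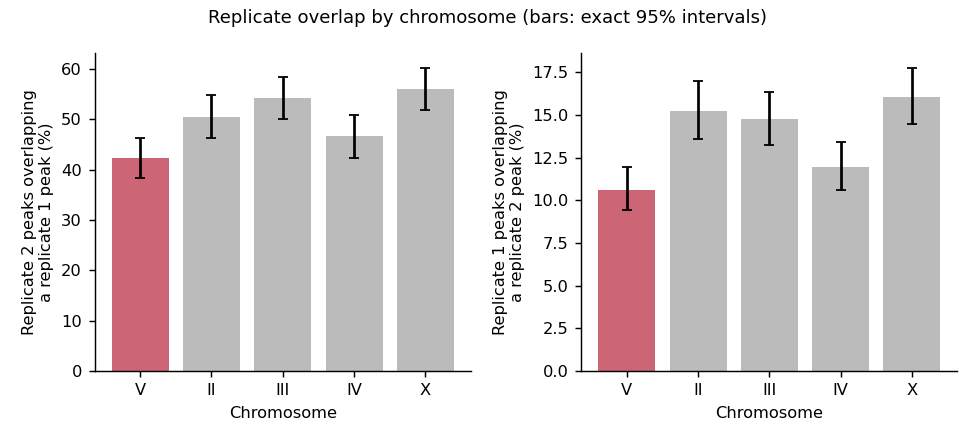
Share of replicate 2 peaks that overlap a replicate 1 peak (left, y axis in percent) and of replicate 1 peaks that overlap a replicate 2 peak (right, percent) by chromosome (x axis), with V in red. Bars are shares with exact 95% intervals, and V stands lowest in both panels, at 42.3% and 10.6%.

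Set part against part, V fell below the other chromosomes past the threshold in the outer parts and not in the middle part. The share of series peaks in both replicates was 7.12% on V against 9.61% on II, 11.0% on III, 8.03% on IV and 10.7% on X (adjusted Fisher's exact p 0.000372, 1.28e-07, 0.154 and 4.24e-07). The middle parts alone gave 10.9% on V against 12.1%, 10.7%, 9.37% and 10.5%, with adjusted Fisher's exact p-values from 0.809 to 0.947. The outer parts alone gave 5.08% on V against 8.16%, 11.2%, 7.38% and 10.7%, with adjusted Fisher's exact p-values of 7.02e-05 on II, 5.5e-13 on III, 0.00115 on IV and 2.82e-12 on X. The outer parts of V thus held a smaller share than those of each of the 4 chromosomes, IV included, and the tests of equal odds ratios above are the tests of the difference between parts. This division by parts was made after the shares had been seen. Replicate 2 itself was sparsest in the outer parts of V. It held 23.2 peaks per Mb there, against 30.8 on II, 38.6 on III, 28.8 on IV and 31.7 on X.

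Judged by the strongest 10% of each list, peak strength moved with this difference in the series list and replicate 1, and by little in replicate 2. The strongest 10% of the series list held 7.78% of the V peaks and 10.4% of those on II, III, IV and X together. The strongest 10% of replicate 1 held 7.21% and 10.5%, and that of replicate 2 held 9.48% and 9.69%. By median score V was weaker than each of II, III, IV and X in replicate 2, at 0.000165 against 8.29e-05 to 0.000154. In the series list the class held 11.1% of the peaks in the middle part of V and 6.01% of those in its outer parts. Within that strongest class, 69.8% of V peaks were found in both replicates (206 of 295, interval 64.2% to 75.0%), against 75.0% on the other 4 (965 of 1286, 72.6% to 77.4%). Inside V the class gave 76.2% in the middle part (112 of 147, 68.5% to 82.8%) and 63.5% in the outer parts (94 of 148, 55.2% to 71.3%). In the next class the shares were 17.1% and 11.1%, but in class 3 they were 3.17% and 3.28%. Of the 10 classes of the series list, 4 had the higher share in the middle part while in the 5 weakest no V peak was in both replicates, and 6 had a lower share on V than on the other 4 chromosomes. In class 3 V was the higher, at 3.24% against 2.79%. In classes 5, 6 and 7 the lower share rested on few peaks. These were 1 of 435, 0 of 397 and 0 of 371 on V, against 3 of 1203, 1 of 1236 and 2 of 1236 on the others. How much of the chromosome difference comes with strength was not tested beyond these values. In replicate 1 and in replicate 2 the V share was the lower one in 9 of 10 strength classes. An example is 61.7% against 75.0% in class 3 of replicate 2 (29 of 47 against 174 of 232).

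Against the other chromosomes, the share of V peaks with a score below 1e-10 was lower than on II, III and X. It was 6.01% on V, 8.21% on II, 10.2% on III, 6.17% on IV and 9.01% on X, with adjusted Fisher's exact p-values of 0.000668, 2.56e-09, 0.806 and 4.59e-06. Replicate 1 alone gave ratios of 0.747, 0.696, 1.04 and 0.712 in the same order. Replicate 2 alone turned the direction, with ratios of 1.07 against II, 1.06 against III and 1.25 against IV, none past the threshold, and 0.908 against X. With a score limit of 1e-20 the series ratios were 0.839, 0.715, 1.01 and 0.722, and no call was left. With a limit of 1e-05 the ratio to X was 0.973 and its call was lost (adjusted Fisher's exact p 0.448).

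In density V was among the sparser chromosomes. Its 181 series peaks per Mb compared with 192 on II, 207 on III, 196 on IV and 177 on X. The ratios were 0.944 to II (interval 0.900 to 0.991, adjusted exact binomial p 0.0271), 0.877 to III (0.835 to 0.921, p 5.17e-07), 0.923 to IV (0.881 to 0.967, p 0.00140) and 1.03 to X (0.979 to 1.08, p 0.278). In replicate 2 V was the sparsest of the 5, at 28.3 per Mb against 32.2 on X, and the ratio to X turned to 0.877 (adjusted exact binomial p 0.0363). In replicate 1 the ratio to II was 0.979 and did not pass the threshold (adjusted exact binomial p 0.659). The calls against II and IV were both lost when peaks with gaps under 1000 bp were counted as 1, with ratios of 0.978 and 0.954, and that against IV in replicate 2 (0.898). The call against II was also lost with peaks of 50 bp or wider (0.948) and without the longest peak-free stretch (0.955). The difference from III passed in each alternative tried.

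The strongest peak of V was a region far wider than its other peaks. It ran from 6350830 to 6354622 (3793 bp) with a score listed as 0. It shares that score with 3 other series peaks, so its rank of 4 stands for a tie of the 4 strongest. Replicate 1 resolved it into peaks at 6350830 to 6351828 (score 1.41e-90), 6352078 to 6352745 (1.97e-70) and 6352981 to 6354591 (3.97e-176). Replicate 2 resolved it at 6350935 to 6351597 (8.78e-44), 6352067 to 6353923 (6.19e-91) and 6354158 to 6354622 (9.44e-58). The replicates thus placed the break points differently. Beyond its right end replicate 2 had 1 more peak, at 6355049 to 6355543 (score 6.81e-06), without a series peak.

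The second strongest peak of V lay 244538 bp to the left of it, at 6105149 to 6106291 (1143 bp, score 1.04e-158, rank 10 in the series list). Replicate 1 covered 97.4% of it (score 4.19e-101, rank 12) and replicate 2 covered 76.7% (4.59e-72, rank 7). The third, at 15143772 to 15144267, was only 496 bp wide with a score of 1.19e-77, and ranked 30 in replicate 1 and 25 in replicate 2. All 3 ranked among the 30 strongest peaks of each replicate.

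The next strongest peaks were spread over the middle 50% of V, apart from 1 near the right end. They began at 11532875 (938 bp, score 2.48e-77), 14507818 (1006 bp, 7.41e-73), 20660177 (1258 bp, 1.28e-72) and 12525362 (1100 bp, 5.91e-63). The last of the 10 strongest began at 8040058 (1241 bp, 2.1e-60), 6000210 (582 bp, 3.31e-56) and 9758275 (1063 bp, 3.07e-50). All 10 overlapped peaks of both replicates, and 9 of the 10 lay in the middle 50% of V. The peak at 9758275 differed most in rank within its list, at 58 in replicate 1 and 231 in replicate 2, where 44.6% of it was covered. The peak at 20660177 ranked 39 and 74, with 42.9% covered in replicate 2.

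Each part had strong peaks of its own, although the outer parts held fewer of the 100 strongest. Of these 100, 80 lay in the middle 50% of V, which includes stretches of both outer parts. The 5 strongest on the left ranked 4, 10, 65, 93 and 122 in the series list, and the last 2 began at 4918341 and 5049379. The 5 strongest in the middle ranked 35, 51, 57, 83 and 86, the last of them at 13391105. The 5 strongest on the right ranked 34, 42, 43, 108 and 123, and 3 of them lay within 13377 bp of each other, from 14495447 to 14508823. All 15 had a peak in both replicates.

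V held a smaller share of the 1000 strongest peaks of each list than of the list as a whole. It held 21.2% of the series list but 15.4% of its 1000 strongest peaks (154, interval 13.2% to 17.8%). In replicate 1 it held 21.1% of the list and 15.5% of the 1000 strongest. In replicate 2 it held 19.6% of the list and 15.8% of the 1000 strongest (interval 13.6% to 18.2%). Each interval for the top 1000 lay below the share of the list, although in replicate 2 that is a large part of its 3009 peaks. Nearer the top the counts do not separate the shares. Of the 100 strongest, 15 lay on V in the series list (8.65% to 23.5%), 18 in replicate 1 (11.0% to 26.9%) and 16 in replicate 2 (9.43% to 24.7%), and each interval includes the share of the list. Of the 10 strongest of replicate 2, 3 lay on V.

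Agreement at the top of each list on V was high, and no higher than on the other chromosomes. The 10 strongest V peaks of replicate 1 all had a replicate 2 peak, as did 48 of the 50 strongest and 83 of the 100 strongest (interval 74.2% to 89.8%). Of replicate 2, all 50 of the 50 strongest and 90 of the 100 strongest had a replicate 1 peak (82.4% to 95.1%). In the strongest 10% of the whole replicate 1 list, 69.0% of V peaks were matched, against 72.8% on II, III, IV and X together. For replicate 2 these shares were 98.2% and 99.1%, and in its next class 81.4% and 89.0%. The strongest unmatched peak of replicate 1 was at 20674021 to 20675027 (1007 bp, score 3.04e-18), 42nd on V. The strongest of replicate 2 was at 8642 to 9280 (639 bp, 1.18e-09), 54th on V. Both had a series peak, and both lay near a chromosome end.

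Width separated well replicated peaks from the rest. The median series peak of V was 142 bp wide (quartiles 61 and 210 bp), and the peaks covered 3.22% of the chromosome. Peaks in both replicates had a median width of 432 bp and a median score of 6.97e-13. The 1420 peaks found in replicate 1 only had 159 bp and 2.26e-05, the 252 in replicate 2 only had 196.5 bp and 8.53e-06, and the 1849 in neither had 97 bp and 0.000213. Of peaks 500 bp or wider, 58.2% were in both replicates (110 of 189). The share was 18.4% from 200 bp to under 500 bp (148 of 804) and 0.600% from 50 bp to under 200 bp (12 of 2001). Wider peaks are more easily overlapped, so these shares are a description.

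The wide peaks of V were not always strong. Peaks over 1000 bp numbered 27, of which 13 lay in the middle part, 22 were in both replicates and 24 had scores below 1e-10. After the region at 6350830 the widest was at 15431188 to 15433167 (1980 bp), with a score of 6.79e-11 and rank 1371. Replicate 1 covered 51.2% of it and replicate 2 78.1%, each with 1 weak peak (scores 3.35e-05 and 2.41e-05). The next was at 13362669 to 13364439 (1771 bp, 2.39e-12), where the replicate 1 peak (0.000629) and the replicate 2 peak (0.000656) took up separate stretches, ending at 13364324 and 13363688. By contrast 9730546 to 9732219 (1674 bp) had a score of 8.31e-49 and 2 peaks in each replicate.

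Wide peaks stood close together at 1 place on the right. Within the window from 15400001 to 15500000, which held 25 series peaks, 3 of the 10 widest peaks of V began at 15426623, 15431188 and 15464415. Their scores were 1.38e-05, 6.79e-11 and 7e-33. The first, 1349 bp wide, ranked 6453 in the series list, overlapped 1 replicate 1 peak of score 0.000344 and overlapped no replicate 2 peak. The others of the 10 widest began at 9343519, 5284013, 4919527 and 8661204. The peak at 4919527 to 4920930 (1404 bp) was 3 short peaks in replicate 1 (best score 4.25e-06) but 1 peak covering 99.0% of it in replicate 2 (2.43e-15).

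**Figure D4:**
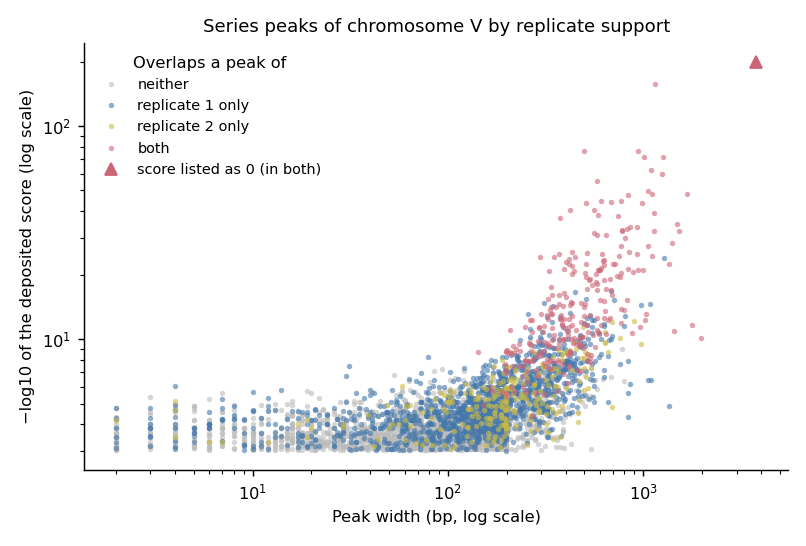
Width in bp (x axis, log scale) and −log10 of the deposited score (y axis, log scale) of the series peaks of V, coloured by whether they overlap peaks of both replicates, 1 of them or neither. Peaks in both gather at the upper right, with a median of 432 bp, and the triangle marks the 3793-bp region whose score is listed as 0, placed at an arbitrary height of 200.

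Chromosome V held the longest stretch without a series peak among the 5 chromosomes. That list had no peak from 2342781 to 2565721 (222941 bp), 72.1 times the median gap of 3094 bp on V. Replicate 1 had none from 2309618 to 2566355 (256738 bp) and replicate 2 none from 2283645 to 2675778 (392134 bp), so all 3 lists were empty there. The neighbourhood was not sparse, with 85 series peaks in the 500 kb before and 86 in the 500 kb after. The longest stretches elsewhere were 56988 bp on II, 54791 bp on III, 82453 bp on IV and 86814 bp on X. In replicate 1 the longest stretch outside V was 108516 bp on II, but in replicate 2 a stretch of 622125 bp on II was longer than that of V. Replicate 2 lacked no peak number up to its highest, but it was sparse, with other empty stretches of 260089 and 254442 bp on V. Whether the missing peak numbers of the other lists bear on this stretch was not tested.

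A second stretch lay in the centre of V, from 8805741 to 8908634 (102894 bp). It was empty in both replicates too, from 8804942 to 8917003 in replicate 1 and from 8785692 to 8918813 in replicate 2. It also exceeded the longest series stretch of II, III, IV and X. After it the order joined that of the other chromosomes, with stretches of 54020 bp from 833682, 48400 bp from 3286399 and 42982 bp from 20222128. Replicate 1 had 1, 1 and 3 peaks inside these, and replicate 2 had none. Neither reads nor inputs were analysed for these stretches.

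**Figure D5:**
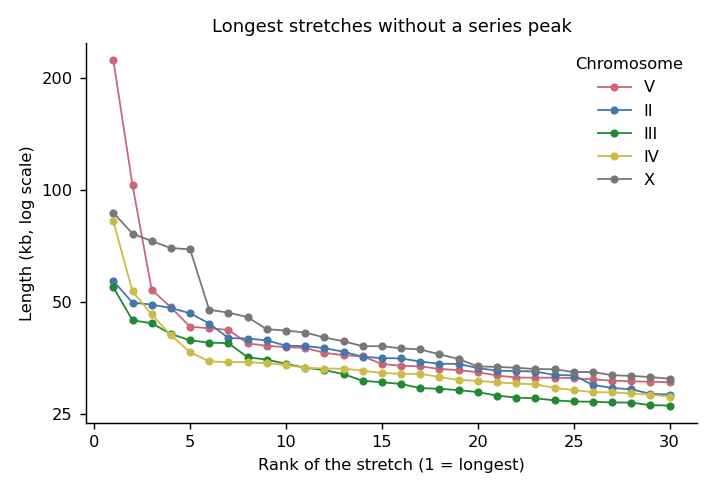
Length in kb (y axis, log scale) of the 30 longest stretches without a series peak on each chromosome, by rank (x axis). The first 2 stretches of V, 223 and 103 kb, stand above the rest, and from the third on V lies among the other chromosomes.

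The densest windows of V were in its outer parts as well as its middle part. Over 208 full windows of 100 kb the series list held 0 to 40 peaks with a median of 18 (quartiles 14 and 22.25), and 9 windows held 30 or more. The densest was the left tip, 1 to 100000, where the series list had 40 peaks and the replicates 22 and 4. The next ran from 8900001 to 9000000 and began inside the empty stretch of the centre. It held 34 series peaks, and the replicates had 16 and 7 there. Windows starting at 4900001 and 19600001 each held 33 series peaks, with 16 and 24 of replicate 1 and 3 each of replicate 2. The fifth started at 15000001, with 31, 16 and 4. In these 5 windows 2 or 3 series peaks each were in both replicates, and 2 or 3 each had a score below 1e-10. The only window without a series peak ran from 2400001 to 2500000 and was empty in the replicates too.

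In the series list window counts varied on V much as on II and IV. The variance of these counts divided by their mean was 2.18 for the series list on V, 1.81 for replicate 1 and 1.69 for replicate 2. The series values elsewhere were 2.18 on II, 1.76 on III, 2.17 on IV and 1.85 on X. In replicate 1 they were 2.27 on II, 1.43 on III, 1.76 on IV and 1.39 on X, and in replicate 2 1.86, 1.48, 1.84 and 1.58, so that V lay below II in both. In replicate 2, 27 of the 208 windows of V were empty, against 10 of 152 on II, 5 of 137 on III, 12 of 174 on IV and 13 of 177 on X.

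Close neighbours were less common on V than on II, III and IV. The median gap was 3094 bp in the series list (quartiles 1243 and 7134 bp), 5160 bp in replicate 1 and 17485.5 bp in replicate 2. Gaps under 1000 bp made up 20.4% on V (773 of 3790), 23.2% on II, 23.5% on III, 22.9% on IV and 20.0% on X. The adjusted Fisher's exact p-values were 0.0123, 0.0116, 0.0123 and 0.674. Gaps follow density, which was also lower on V. In replicate 2 the ratios to II, III and IV were 0.837, 0.869 and 0.825, against 0.881, 0.869 and 0.889 in the series list, and none passed the threshold on 46 such gaps of V. In replicate 1 only the difference from III passed. With a limit of 500 bp none passed (0.939, 0.913 and 0.932), with 5000 bp that from II did not (0.975), and in the stronger 50% neither II (0.850, adjusted Fisher's exact p 0.134) nor IV (0.882, 0.201) did. The shortest gap on V was 201 bp in the series list, 203 bp in replicate 1 and 205 bp in replicate 2.

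Runs of peaks with gaps under 1000 bp held 1347 of the 3791 series peaks of V (35.5%) in 574 runs. The shares were 39.3% on II, 41.1% on III, 39.3% on IV and 35.2% on X. The longest runs there had 8 peaks on II, 8 on III, 10 on IV and 6 on X. The longest on V had 8 peaks, at 12348763 to 12354908 (best score 2.41e-45) and at 20657131 to 20663260. The latter lay around the sixth strongest peak of V. The first was also a run of 8 in replicate 1, from 12348817 to 12355371, and that list had a second run of 8 at 12295912 to 12302113. In replicate 2 the longest runs had 4 peaks, at 6224663 to 6228164 and at 6350935 to 6355543. The run at 6224663 had 7 series peaks, and 6 of replicate 1 from 6225708.

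The midpoints of overlapping peaks were compared between replicates. Requiring overlap itself limits the distance to about the width of the peaks, so the distances are a description. Of the overlaps, 244 were one to one, and their midpoints lay 63.75 bp apart at the median (quartiles 24.25 and 110.9 bp). The medians on the other chromosomes were 58.5 to 72.5 bp. Paired peaks had median widths of 327 bp in replicate 1 and 317 bp in replicate 2, and the replicate 2 peak was the wider in 122 of the 244 pairs. Their scores went together with Spearman's rho of 0.656, a description across peaks of 2 libraries, where the other chromosomes had 0.539 to 0.598.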

How the data were processed

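Peaks of 2 ChIP samples were analysed in 3 lists, 1 per replicate and 1 for the whole series; lists of the 2 input samples were not used here. Per the file headers, peaks came from PeakSeq on WormBase WS220. Not given in the sources used here are its version, the aligner, the calling threshold, how inputs were used and whether reads were pooled. The deposited score was read as a q-value (p-value adjusted for multiple tests); the files do not name it. Positions are as deposited, counted from 1.

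Chromosome length was the last peak end over the lists. Peaks were placed in parts, bins and windows by their midpoint. Overlap meant at least 1 shared bp, and bedtools 2.31.1 gave the same counts. Densities were compared by exact binomial tests and shares by Fisher's exact tests, both two-sided, with Benjamini-Hochberg adjustment over II, III, IV and X or over 6 tests within V, at a threshold of 0.05. Chromosome I was left out of the comparisons. The binomial and Fisher's exact tests and the overlap code were tried on simulated peaks and counts drawn independently of each other. Neighbouring peaks that depend on each other were not simulated, and Zelen's test was not tried. Scripts ran in Python 3.11.15 with scipy 1.17.1, numpy 2.4.6, pandas 2.3.3 and, for plots, matplotlib 3.10.9.

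Named positions are the 10 strongest and 10 widest series peaks of V, the 5 strongest of each of 3 equal parts, the 5 longest peak-free stretches and the 5 densest windows. The strongest unmatched replicate peaks, the runs and the window with 3 wide peaks were chosen after their values were seen. The gene table used here follows WBcel235, not WS220, so no genes or sequences are given. The members, tests and alternatives were chosen with earlier results of these data known. Alternatives were replicate lists, the stronger 50%, peaks of 50 bp or wider, clusters counted as 1, other overlap, gap, score and part limits, no outermost 500 kb and equally long lists. Separate cultures for the replicates are not stated in the labels.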

Additional observations from a re-analysis of the deposited data

How the results depend on the processing

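Of 175 alternative values for 34 results, 115 kept direction and side of the threshold; for the rest the cause was not tested. Ratios of V to another chromosome are given. Single replicate lists gave ranges of 0.803 to 0.979 (density, II), 0.698 to 0.757 (III), 0.898 to 0.909 (IV), 0.877 to 1.01 (X), 1.19 to 1.66 (middle to outer), 1.0 to 1.08 (left to right), 0.837 to 0.937 (gaps under 1000 bp, II), 0.772 to 0.869 (III), 0.825 to 0.958 (IV), 1.04 to 1.06 (X), and for strong peaks 0.747 to 1.07 (II), 0.696 to 1.06 (III), 1.04 to 1.25 (IV), 0.712 to 0.908 (X) and 1.37 to 2.08 (middle to outer).

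Clusters counted as 1 gave densities of 0.978 (II), 0.954 (IV) and 1.04 (middle to outer). Peaks of 50 bp or wider gave 0.948 (II). Without the longest peak-free stretch, density was 0.955 (II), 1.06 (middle to outer) and 1.01 (left to right). In the stronger 50%, left to right was 1.05, gaps were 0.850 (II), 0.882 (IV) and 0.937 (X), replicate 1 overlap 0.812 (II) and 0.829 (III), replicate 2 overlap 0.922 (II) and 1.17 (middle to outer). Gap limits of 500 bp gave 0.939, 0.913, 0.932 and 0.989 (II, III, IV, X), and 5000 bp gave 0.975 (II) and 0.998 (X). Strong peaks below 1e-20 gave 0.839, 0.715, 1.01 and 0.722 (II, III, IV, X), and below 1e-05 gave 0.973 (X).

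Equally long lists gave replicate 1 overlap of 0.845 (II), 0.882 (III) and 1.05 (IV). The middle parts alone gave replicate 1 overlap of 0.806, 0.965, 1.01 and 0.925, replicate 2 overlap of 0.842, 0.903, 1.03 and 0.910, and shares in both of 0.904, 1.02, 1.16 and 1.03 (II, III, IV, X). The outer parts alone gave 0.763, 0.800 and 0.688 against IV. No paired analysis was possible because only the ChIP group has peak lists in use, so the numbers join no groups. Overlap results need both replicates, so none could be left out. Depth is unknown.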

Other observations

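Series peaks under 50 bp made up a like share of chromosome V as of the others, and on V as on the others none overlapped both replicates. The narrowest series peak spanned 2 bp, 224 were 10 bp or narrower, and 797 (21.0%) were under 50 bp, against 21.3% on II, 22.9% on III, 19.6% on IV and 19.8% on X. Of those 797, 0 overlapped a peak of both replicates, which allows a share of up to 0.376% by the rule of 3 counts of the total and 0.462% by the exact 95% interval, and their median score was 0.000273. On the other chromosomes too, leaving out series peaks under 50 bp did not change the number in both replicates. It stayed at 282 on II, 315 on III, 276 on IV and 334 on X. Replicate 1 had 402 V peaks under 50 bp (16.9%), of which 8 overlapped a replicate 2 peak. Replicate 2 had 4.

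A series peak overlapped 71.5% of the V peaks in replicate 1 and 89.0% of those in replicate 2. V lay within the range of II, III, IV and X, 69.7% to 74.0% in replicate 1 and 87.8% to 89.8% in replicate 2. The strongest V peak of replicate 1 without a series peak was at 8306556 to 8306887 (score 1.22e-07, 180th on V), and that of replicate 2 at 11767147 to 11767606 (1.56e-07, 84th on V). These positions were chosen after their values were seen.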
